A study of Mus musculus with 37 samples.

Results

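The genes described here are 35 genes of the interferon response and of antigen presentation by class I of the major histocompatibility complex (MHC), chosen by symbol from a fixed list, and all 35 had a row among the 27999 gene rows of the count tables. They fall into signalling genes (Irf7, Irf9, Stat2, Usp18), induced antiviral effectors (Isg15, Ifit1, Ifit3, Oasl2, Oas1a, Rsad2, Ifi44, Rtp4, Xaf1), other effectors (Bst2, Ifi27, Ifi35), sensors of foreign nucleic acid (Ifih1, Dhx58, Zbp1), the PARP group (Parp9, Parp14 and the ubiquitin ligase Dtx3l), interferon-inducible GTPases (Gbp2, Gbp3, Gbp7, Irgm1, Igtp), chemokines (Cxcl10, Ccl5) and the class I pathway (Psmb8, Psmb9, Tap1, B2m, H2-D1, H2-K1). Each gene was followed over libraries, over single cells, and between cells with and without a detected transcript of Myocd, Mesp1, Foxn4, Gata6, Mef2c or Myod1.

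Interferons are secreted cytokines that cells make when they sense foreign nucleic acid. Binding of type I interferon to its receptor activates a complex that holds STAT2 and IRF9 and binds the interferon-stimulated response element of target genes, while interferon-gamma acts through the GAS element. Fibroblasts can make and answer interferon-beta, and the response raises antiviral effectors together with the proteasome subunits, peptide transporter and heavy and light chains that load peptides onto class I molecules.

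The cells were mouse embryonic fibroblasts (MEFs) of ICR background, harvested at day 7 of infection with retroviruses carrying 48 factors as a pool, and their RNA was counted by Drop-seq, a droplet method for the polyadenylated RNA of single cells. The pool held Cdkn1a, E330017L17Rik, Foxn4, Gata4, Gata5, Gata6, Hand1, Hand2, Hdac1, Hdac2, Hdac4, Hey1, Hey2, Isl1, Jazf1, Lbh, Mef2a, Mef2b, Mef2c, Mef2d, Meis1, Mesp1, Msc, Msx1, Msx2, Myocd, Myod1, Nkx2-5, Notch1, Nr2f2, Pou2f1, Pou6f1, Rarg, Rxra, Shox2, Smad4, Smarcd3, Tbx18, Tbx2, Tbx3, Tbx5, Tcf3 and Xiap together with the microRNAs Mir133a-1, Mir145a, Mir1a-1, Mir208a and Mir499. The labels give 37 libraries, all technical replicates of 1 biological replicate that received the whole pool, so there is a single group, with no library labelled as uninfected, and the comparisons are between cells of 1 culture. P-values therefore measure the spread between libraries of that culture and extend to no other culture. A count of a factor's gene marks a cell as with the factor, whether the transcript came from the vector or from the cell's own gene. Free RNA in a droplet can also give such a count, and its share was not estimated, so all 6 factor comparisons are between cells with and without a detected transcript.

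After joining 2 libraries that shared 59 barcodes (technical replicates 4 and 6) and removing copies, 8563 of 8730 barcodes in 36 libraries were kept, with a median of 8558 counts per cell and library medians from 3563 to 15695. Any other pair had at most 4 barcodes in common. By the library names there were 3 series, JD with 15 libraries, PZ47-PZ48 with 15 and PZ58 with 6, and by counts of the ribosomal gene Rps27a alone the libraries fell into a high Rps27a class of 10 (728 to 1302 CPM, a gene's counts scaled by the library total), among them all of PZ58, and a low class of 26 (2.96 to 15.6). No label names these classes. The fibroblast label was borne out by collagen genes, with Col1a1 in 99.6% and Col3a1 in 95.6% of cells. Of other cell types, 126 cells held at least 3 of 17 macrophage markers, 849 at least 3 of 17 skeletal muscle markers and none 3 of 12 lymphoid markers. The complement gene C1qa was found in 43 cells and the leukocyte gene Ptprc in 41. Csf1r, also among the macrophage markers, went the other way, with counts in 1287 cells, 15.0%.

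Stretches of promoter are shown first, because the type I complex acts on target genes through such letters. RefSeq windows on build GRCm38.p6, from 250 bases before to 50 bases after a gene's start, matched 27 of the 35 genes by symbol, and Ccl5, Dhx58, Ifi27, Parp14, Parp9, Rtp4, Usp18 and Zbp1 had none. The core of the interferon-stimulated response element, searched on both strands as GAAA, 2 bases of any kind and GAAA again (TTTC, 2 bases and TTTC on the other), was in a window of 15 of 27 genes, 55.6%, against 1079 of all 27025 genes with windows of the same length, 3.99%. The GAS element, searched as TTCNNNGAA, which reads the same on both strands, was in 6 of 27 genes, 22.2%, against 9.55% of all genes. Of the genes shown, both letter patterns overlap each other in Bst2. A match is a description of the letters and not a site.

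The following 9 pieces are of genes whose values carry the results below, namely induced effectors, 3 GTPases and the class I light chain B2m. Each is written 5′ to 3′ along the gene's strand, with the matches to the response element in capitals. They lie at chr4:156200845-156200926, minus strand (Isg15), chr19:34640755-34640843, plus strand (Ifit1), chr19:34583343-34583446, plus strand (Ifit3), chr12:26456533-26456602, minus strand (Rsad2), chr8:71537557-71537632, minus strand (Bst2), chr11:48871405-48871480, minus strand (Irgm1), chr11:58199492-58199561, plus strand (Igtp), chr3:142559969-142560044, plus strand (Gbp3) and chr2:122147518-122147587, plus strand (B2m).
Isg15: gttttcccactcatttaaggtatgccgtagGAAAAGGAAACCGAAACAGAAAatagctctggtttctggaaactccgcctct
Ifit1: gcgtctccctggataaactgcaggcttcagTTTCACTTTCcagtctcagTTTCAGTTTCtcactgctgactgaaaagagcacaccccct
Ifit3: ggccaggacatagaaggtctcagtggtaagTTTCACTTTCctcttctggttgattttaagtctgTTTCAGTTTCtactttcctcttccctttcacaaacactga
Rsad2: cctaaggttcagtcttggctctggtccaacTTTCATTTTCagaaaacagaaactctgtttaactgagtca
Bst2: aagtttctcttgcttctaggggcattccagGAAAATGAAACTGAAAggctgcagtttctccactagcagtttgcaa
Irgm1: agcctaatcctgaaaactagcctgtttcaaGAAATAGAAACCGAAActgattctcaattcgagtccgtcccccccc
Igtp: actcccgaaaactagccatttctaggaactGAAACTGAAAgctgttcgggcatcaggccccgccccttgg
Gbp3: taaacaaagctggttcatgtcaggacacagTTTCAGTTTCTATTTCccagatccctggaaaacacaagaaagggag
B2m: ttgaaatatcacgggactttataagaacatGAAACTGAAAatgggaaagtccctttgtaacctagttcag
In Isg15 the matches run together into an unbroken stretch that begins 78 bases before the gene's start, while in Ifit1 and Ifit3 separate matches stand apart by a spacer. The match of B2m begins 139 bases before its start, and those of Irgm1 and Igtp begin 30 and 34 bases before theirs. H2-D1, H2-K1, Tap1, Psmb8, Psmb9, Irf7, Irf9, Oasl2, Ifi44, Ifi35, Xaf1 and Dtx3l had no match to the response element in their windows, which says only that these letters are not there. Of these, Psmb8 and Ifi35 had a match to the GAS element.

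All 35 genes were detected, from 0.631% of cells for Ccl5 to 99.4% for B2m. Levels are given in CPM as lowest, median and highest of 36 libraries, and they are not divided by gene length. B2m, the light chain of class I molecules, stood at 1398, 2149.9 and 2737 CPM and was found in 99.4% of cells. The heavy chain gene H2-D1 stood at 245, 324 and 410.0 CPM, with counts in 76.4% of cells. For the heavy chain gene H2-K1 the values were 166, 213 and 293 CPM in 73.1% of cells. Over libraries the coefficient of variation of these class I genes was 16.7%, 12.0% and 17.3%.

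The other members of the class I pathway were sparser. Tap1, a subunit of the peptide transporter, had counts in 17.0% of cells and 10.5, 16.2 and 30.0 CPM. The immunoproteasome subunit Psmb8 had 12.5, 20.3 and 36.1 CPM in 17.0% of cells, and Psmb9 0.999, 4.03 and 9.41 CPM in 4.64%. Psmb9 and Tap1 lie on opposite strands with overlapping annotation, and the strand of the counting was not stated, so reads of each can be counted for the other. The same holds for Parp9 and Dtx3l, and for Cxcl10, Irf7, Irf9, Rtp4, Igtp, B2m, Dhx58, Psmb8, Usp18 and Ifi35, each of which overlaps another annotated gene.

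Among the effectors, Bst2, a membrane protein that tethers budding virus, stood at 116, 273 and 428 CPM and Ifi27, a mitochondrial protein, at 96.1, 158 and 189.9 CPM. Irgm1, a GTPase of intracellular defence, stood at 62.9, 103 and 154 CPM. These were found in 68.9%, 56.2% and 45.1% of cells. Isg15, a ubiquitin-like modifier, had 41.6, 81.0 and 164 CPM in 31.4% of cells. The other induced effectors were found in 1.45% (Rsad2) to 21.3% (Xaf1) of cells, the sensors in 1.82% (Zbp1) to 13.2% (Ifih1), and the signalling genes in 10.8% (Usp18) to 31.0% (Irf9). Irf9, the DNA-binding part of the type I complex, varied least between libraries, with a coefficient of variation of 9.86%, and the chemokine Cxcl10 most, with 208%.

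A few genes owed their level to a few cells. The 1% of cells with the most counts of a gene held 90.2% of the counts of Rsad2, which encodes the antiviral enzyme viperin, and 58.3% of those of Ifit3, a protein that binds viral RNA with Ifit1. The same share was 11.5% for B2m and 12.8% for Irf9. It also follows from how many cells hold a gene at all, 1.45% for Rsad2, 7.02% for Ifit3, 31.0% for Irf9 and 99.4% for B2m. Cxcl10 had 437 counts in 60 cells and Ccl5, a chemokine for T cells, 207 counts in 54. A single cell of technical replicate 13 held 146 of the Cxcl10 counts, and that library stood at 47.1 CPM against a median of 0.954 over libraries.

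**Figure D1:**
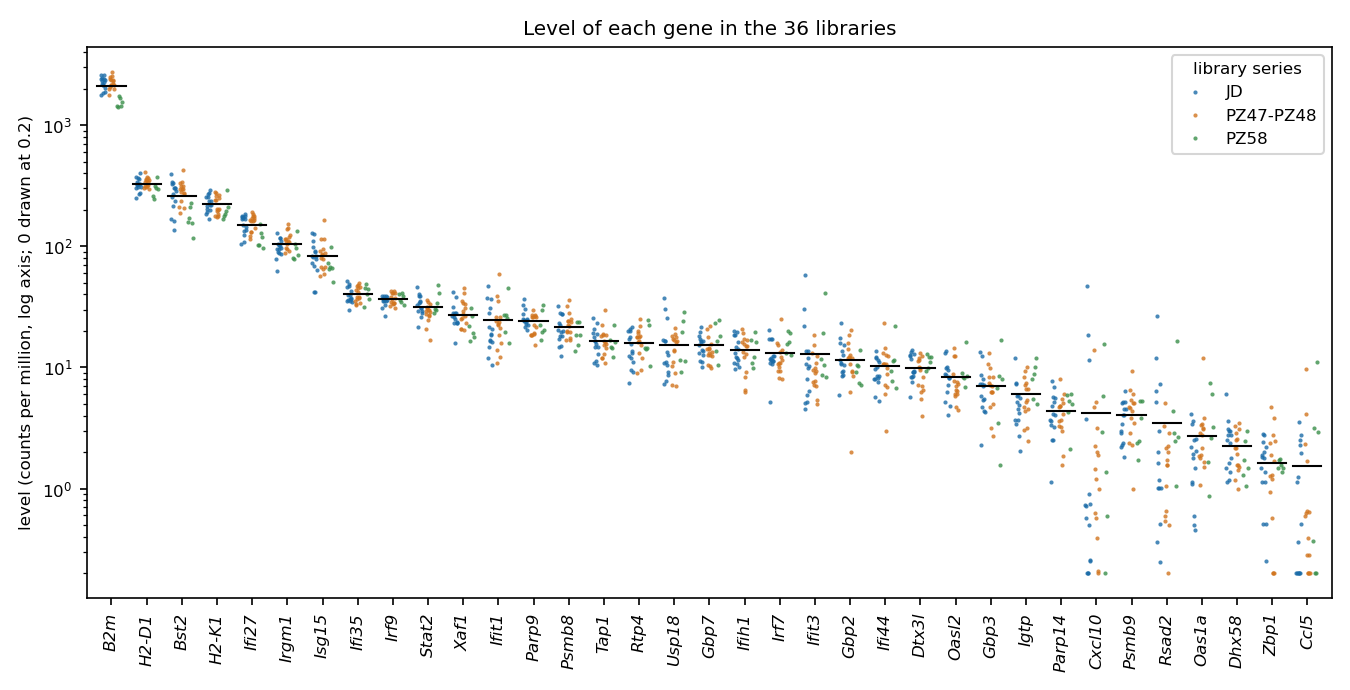
Level of the 35 genes in each of the 36 libraries, in CPM on a log axis, with 1 point per library coloured by series and a bar at the mean. Genes are in order of their mean count, which is not divided by gene length, so heights of different genes are not compared; the PZ58 libraries lie lowest for B2m, and Cxcl10, Rsad2 and Ccl5 spread most.

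B2m was lowest in libraries of the PZ58 series. These ranged from 1398 to 1727 CPM and did not overlap those of JD (1762 to 2611) or PZ47-PZ48 (1753 to 2737). The share of all genes with such a gap was not computed, so it cannot be called particular to B2m. All PZ58 libraries are of the high Rps27a class, and the 4 JD libraries of that class had 2083 ± 376 CPM (SD, n = 4) against 2271 ± 208 (SD, n = 11) in the other JD libraries. Bst2 instead went with the Rps27a class, within JD at 169.5 ± 31.7 CPM (SD, n = 4) in the high against 304 ± 43.5 (SD, n = 11) in the low class. Ifi27 did likewise, at 117 ± 17.9 CPM (SD, n = 10) over all libraries of the high and 161 ± 20.6 CPM (SD, n = 26) over those of the low class. Comparisons between cells below are within libraries.

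Interferon-active cells were a small fraction of every library. Each of the 8177 cells with at least 3000 counts was thinned at random to 3000 counts, leaving out 386 shallower cells of 9 libraries, and a cell was called interferon-active when at least 3 of 12 core genes (Isg15, Ifit1, Ifit3, Irf7, Oasl2, Oas1a, Rsad2, Usp18, Ifi44, Rtp4, Xaf1 and Zbp1) were then detected. This held for 301 cells, 3.68% (95% exact binomial interval 3.28 to 4.11, counting error only). Over libraries the share was 3.79 ± 1.47% (SD, n = 36), from 1.01% in technical replicate 2 to 8.33% in technical replicate 27, and none was at 0. In technical replicate 27 the share was 5 of 60 cells, and its interval ran from 2.76 to 18.4%.

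The JD libraries together had a share of 3.25%, those of PZ47-PZ48 3.72% and those of PZ58 4.48%, with overlapping intervals, and by Rps27a class 3.94% in the high and 3.58% in the low class. None of the 12 genes was detected in 69.3% of the thinned cells and a single one in 21.0% at this depth. The most seen in a cell was 9 of the 12 genes, in 3 cells. The share rests on depth and on the rule, at 9.69% with 2 genes required, 1.57% with 4, 2.20% when cells were thinned to 2000 counts, 7.13% at 5000 and 16.9% without thinning.

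**Figure D2:**
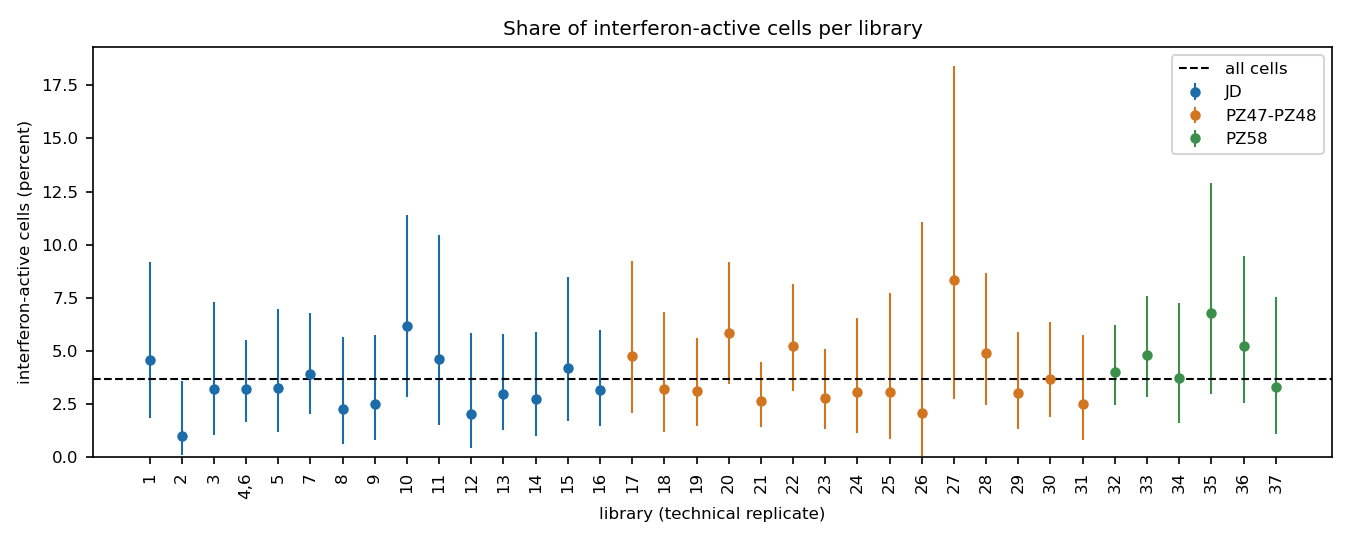
Percent of interferon-active cells in each library (point) with its 95% exact binomial interval (bar), coloured by series, and the share over all cells as a dashed line. The interval of each library but technical replicate 2, which lies lowest, spans the dashed line.

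Few active cells held markers of other cell types. Of 125 cells with at least 3 macrophage markers 3 were active, 2.40% (interval 0.498 to 6.85), and of 829 with skeletal muscle markers 19, 2.29%. Without all cells of other types the share was 3.96%. The active cells held 4.28% of all counts, but 87.4% of those of Cxcl10, 31.1% of Gbp3, 28.6% of Igtp, 13.8% of Bst2 and 6.99% of B2m, none of which was used to call them.

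Correlations over cells were computed on the thinned counts after subtraction of each library's mean. They showed a block of induced genes and a block of the class I chains B2m, H2-D1 and H2-K1. Over the 595 pairs of the 35 genes the median Pearson r was 0.05, the highest 0.46, and 32 pairs reached 0.2. The points are cells of equal depth that share libraries, and the values are descriptions without a test. Ifit1 and Ifit3, neighbours on chromosome 19 whose products act together, had r = 0.46. Ifit3 with Cxcl10 had 0.42, Ifit3 with Rsad2 0.37 and Isg15 with Ifit1 0.36. The cell of technical replicate 13 with the most Cxcl10 counts bears on these values. Without it, a setting chosen after seeing the data, r was 0.26 for Ifit3 with Cxcl10, 0.29 for Ifit3 with Rsad2, 0.39 for Ifit1 with Ifit3 and 0.36 for Isg15 with Ifit1, and 27 pairs reached 0.2. Among the class I chains r was 0.39 for B2m with H2-D1, 0.34 for H2-D1 with H2-K1 and 0.29 for B2m with H2-K1, and without that cell these were 0.39, 0.34 and 0.29.

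Between these blocks the values were lower. Isg15 with B2m had r = 0.13 and Ifit3 with H2-D1 0.04. Bst2 was tied to both, at 0.29 with Isg15 and 0.24 with B2m. Median r was 0.13 among the induced effectors and 0.06 between them and the class I pathway. It was 0.09 within the class I pathway and 0.10 between the induced effectors and the GTPases. In sparse counts a low r is no finding, and Ifit3 was detected in 2.23% of the thinned cells against 97.3% for B2m. Ifi27, named for its induction by interferon alpha, had r = 0.03 with Isg15 and -0.00409 with Ifit3. Ifit3 with Cxcl10 moved between series, with 0.56 (JD), 0.20 (PZ47-PZ48) and 0.32 (PZ58). B2m with H2-D1 kept 0.42, 0.36 and 0.39. In ranks (Spearman) the highest value was 0.27 and 8 pairs reached 0.2.

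Detection of the genes together gave the same picture in shares of cells. Of the 1288 thinned cells with a count of Isg15, 14.4% also held Ifit1, against 2.70% of the other cells. For Usp18, the protease that removes Isg15, the shares were 9.94% and 2.10%, and for Bst2 62.8% and 37.0%. For Irf9 they were 15.5% and 9.57%.

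**Figure D3:**
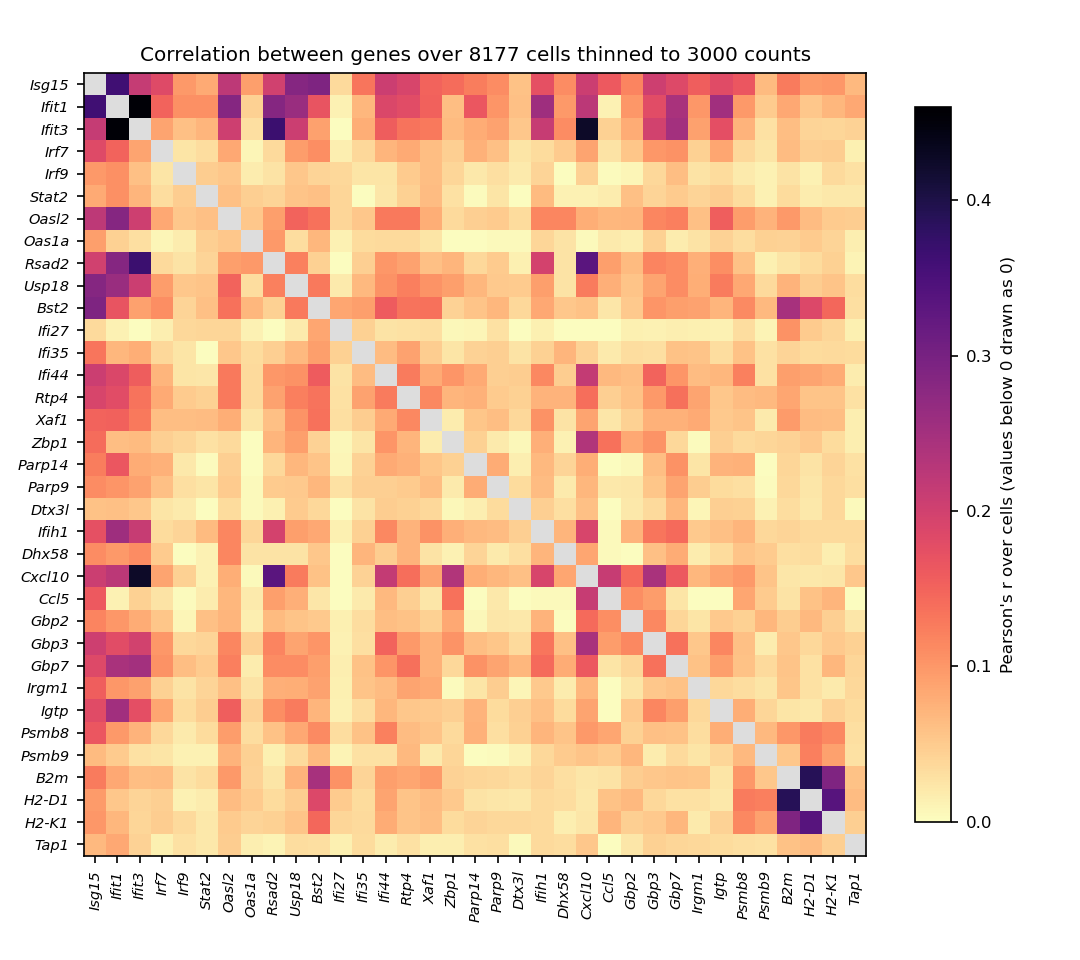
Pearson's r over 8177 cells thinned to 3000 counts for each pair of the 35 genes, as a shade from 0 to 0.46 with the diagonal in grey. A dark group holds Isg15, Ifit1, Ifit3, Rsad2 and Cxcl10, and a separate one at the lower right holds B2m, H2-D1 and H2-K1.

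The genes that did not enter the call of active cells were then compared between 298 active cells and as many other cells matched 1 to 1 on total counts within 34 libraries, with median totals of 10606 and 10581 counts. Both sets were summed per library and tested with edgeR's quasi-likelihood test over all genes with the library as a block, at an adjusted p (Benjamini-Hochberg) under 0.05. Of the 23 genes outside the core, 22 were higher in active cells and none was lower, where 0.811% of 12948 tested genes were called higher and 0.548% lower. Their median log2 fold change was 1.82, against -0.01 over all genes. The remaining gene, Ifi27, had a log2 fold change of 0.49 (SE 0.14, adjusted p = 0.059). The correlations above come from the same cells and are no separate evidence.

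Of the signalling genes, Stat2, a part of the type I complex, stood at 25.5, 89.7 and 267 CPM in the active cells (lowest, median and highest library) and 0, 16.6 and 90.7 in the matched cells. It was higher in 33 of 34 libraries (log2 fold change 2.11, SE 0.19, adjusted p = 2.7e-12). Its partner Irf9 rose less (log2 fold change 1.29, SE 0.18), from a median of 23.7 to 76.5 CPM. The sensors Ifih1, which binds long double-stranded RNA, and Dhx58 rose by log2 fold changes of 2.47 and 1.82, the latter on 60 against 13 counts. Parp14, Dtx3l and Parp9 rose by 2.02, 2.03 and 1.62 on the log2 scale.

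Bst2 stood at 243, 730.1 and 1560.0 CPM in the active cells (lowest, median and highest library) and 38.6, 214 and 458 in the matched cells, and it was higher in all 34 libraries (log2 fold change 1.88, SE 0.12, adjusted p = 2.7e-17), although the ranges overlapped. Ifi35, a partner of Nmi, rose by 1.04. All 5 GTPases rose, with log2 fold changes from 1.61 for Gbp2 to 3.06 for Igtp. Irgm1 stood at 85.5, 287 and 614 CPM in the active cells (lowest, median and highest library) and 0, 84.5 and 415 in the matched cells (log2 fold change 1.73, SE 0.18, adjusted p = 1.5e-10). Igtp, which acts on the vacuoles of parasites, had 202 counts in active against 20 in matched cells (log2 fold change 3.06, SE 0.32, adjusted p = 2.9e-10). Gbp3, a guanylate-binding protein, had 264 against 29 (log2 fold change 3.03, SE 0.27, adjusted p = 2.7e-12).

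The class I chains and Tap1 had log2 fold changes from 0.67 to 1.12. B2m stood at 1291, 2972 and 6069.5 CPM in the active cells (lowest, median and highest library) and 891, 1885 and 3827 in the matched cells (log2 fold change 0.67, SE 0.08, adjusted p = 4.7e-08). H2-D1 stood at 259.6, 509 and 981 CPM in the active cells (lowest, median and highest library) and 116, 277 and 848 in the matched cells (log2 fold change 0.76, SE 0.10, adjusted p = 4.6e-07), and H2-K1 at 149, 336 and 784 CPM in the active cells (lowest, median and highest library) and 70.5, 206 and 350.0 in the matched cells (log2 fold change 0.82, SE 0.11, adjusted p = 8.6e-08). These were higher in 30 of 34 libraries, 30 of 34 libraries and 28 of 34 libraries. Psmb8 and Psmb9 rose by 1.76 and 2.16 on the log2 scale, and Tap1 by 1.12. Within each series the log2 fold changes of B2m were 0.79 (JD), 0.58 (PZ47-PZ48) and 0.64 (PZ58).

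The chemokines were the most uneven. Cxcl10, which attracts T cells, had 382 counts in active and 4 in matched cells, and it was found in 8.39% of active cells and higher in 19 of 34 libraries (log2 fold change 5.25, SE 0.45). Ccl5 had 88 against 2 counts in 3.69% of active cells. With DESeq2 neither passed the threshold (adjusted p = 0.97 and 0.99). Skeletal muscle markers, in sum 149 CPM in the median library of matched and 69.5 CPM in that of active cells (ranges 0 to 7807 and 0 to 399.8), moved with the comparison: 40 matched and 19 active cells held at least 3 of the 17. Without cells of other types all 23 genes were higher.

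The course over the number of core genes differed between genes. In cells with 0, 1, 2, 3 and at least 4 core genes (5666, 1719, 491, 173 and 128 cells), mean counts per 3000 of B2m were 5.34, 6.34, 7.68, 8.50 and 8.89. Bst2 went through 0.528, 0.903, 1.51, 1.83 and 2.52 and H2-D1 through 0.835, 1.06, 1.34, 1.56 and 1.61. Cxcl10 had means of 0.00176, 0, 0.00204, 0.0405 and 0.367, on 10, 0, 1, 7 and 47 counts. Igtp rose at each step, through 0.00953, 0.0215, 0.0346, 0.0405 and 0.273. B2m, Bst2, H2-D1, Cxcl10 and Igtp all had their highest mean in cells with 4 or more core genes. Ifi27 had 0.389, 0.550, 0.552, 0.538 and 0.500, without a step beyond 1 core gene. These are means over cells of 36 libraries at equal depth, and the order was not tested.

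**Figure D4:**
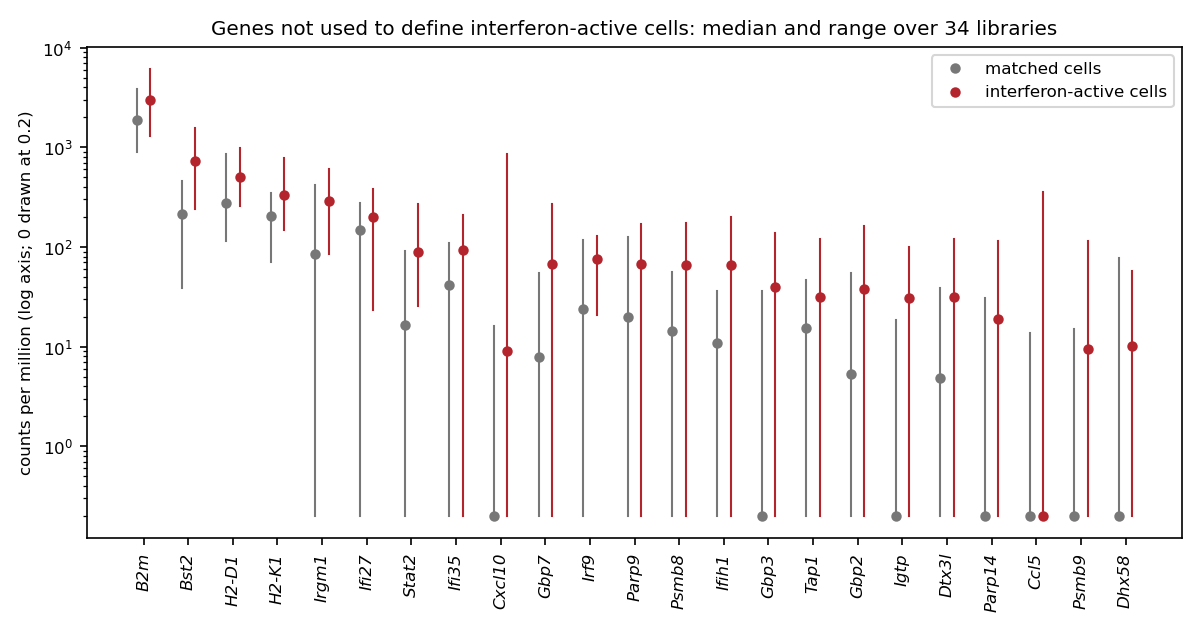
Level of the 23 genes that were not used to call interferon-active cells, as the median (point) and range (line) over 34 libraries in CPM on a log axis, for active (red) and matched cells (grey). The medians of active cells lie above those of matched cells for all but Ccl5, whose medians are both at 0.

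Other genes of the pathway, from lists chosen beside the 35, showed how wide the change was. Interferon ligands gave almost no counts. Of 11 ligand genes Ifnb1, Ifng, Ifnl2 and the alpha genes Ifna1, Ifna2, Ifna4 and Ifna5 had 0 counts in all libraries, and the others had 1 to 4 counts in all, so none could be tested. A count of 0 allows up to 3 counts among the 119796414 read. Receptor and JAK-STAT genes were read, Ifnar1 with 5299 and Ifngr2 with 11042 counts. The kinase Jak1 was higher in active cells (log2 fold change 0.56, adjusted p = 0.0062).

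Of 49 tested further interferon-stimulated genes, 31 were higher and 0 lower, with a median log2 fold change of 1.5. Ifit3b, a near copy of Ifit3 with which it may share reads, had 4.26, the GTPase Iigp1 3.19, Samd9l 2.14 and the entry inhibitor Ifitm3 0.82. Of 18 nucleic acid sensing genes 6 were higher, among them the kinase Eif2ak2 (1.36), Ddx58, which encodes RIG-I (1.26), and the DNA-binding genes Ifi203 (2.77) and Ifi204 (1.5). Of 18 other class I genes 5 were higher, with tapasin (Tapbp) at 0.94, the proteasome activator Psme2 at 0.61, the immunoproteasome subunit Psmb10 at 0.88 and H2-T23 at 1.49. Of the 14 constitutive proteasome subunits none was called in either direction by edgeR, and their median was -0.05. Of 3 tested class II genes none was called, and of 14 NF-kB response genes 1 was lower, the prostaglandin synthase Ptgs2 (-1.18, adjusted p = 0.0088).

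Cells with each of 6 factors were compared in the same way with cells of the same library in which that factor was not detected, matched on total counts. Mean totals with and without the factor still differed for Mef2c (21167 and 18148 counts) and Gata6 (20165 and 18230). The comparisons share libraries, and a cell may hold several factors or serve as a matched cell for more than 1, so they are not independent of each other. Foxn4, a forkhead transcription factor, went with higher class I genes. In 452 cells with Foxn4 of 35 libraries, 7 of 34 tested genes were higher (Bst2, Psmb8, Psmb9, B2m, H2-D1, H2-K1 and Tap1) and none lower, where 4.04% of 14200 genes were called higher and 2.9% lower. The median log2 fold change of the tested genes was 0.44 against 0.02 over all genes. Of the 34 tested genes 32 had a log2 fold change above 0, and 14 had an unadjusted p under 0.05. These genes were read in the same cells, so their signs are not independent. All 6 class I genes of the list were among those called, and Cxcl10 had too few counts to be tested.

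H2-K1 stood at 140.1, 355 and 753 CPM in cells with Foxn4 (lowest, median and highest library) and 105, 199 and 337 in cells without. It was higher in 32 of 35 libraries (log2 fold change 0.66, SE 0.09, adjusted p = 3.8e-07). H2-D1 stood at 243, 545 and 1254 CPM in cells with Foxn4 (lowest, median and highest library) and 149, 307 and 616 in cells without (log2 fold change 0.75, SE 0.11, adjusted p = 2.5e-06), higher in 31 of 35 libraries. Both heavy chains were higher in most libraries, and the ranges overlapped. B2m stood at 1743, 2812 and 5193 CPM in cells with Foxn4 (lowest, median and highest library) and 1101, 2125 and 3739 in cells without (log2 fold change 0.46, SE 0.08, adjusted p = 2.4e-05). Bst2 went from a median of 232 to 349 CPM (log2 fold change 0.55, SE 0.11, adjusted p = 0.00067). Psmb9 had 101 counts with Foxn4 and 26 without (log2 fold change 1.75, SE 0.37, adjusted p = 0.0013), and Tap1 225 and 126 (log2 fold change 0.81, SE 0.23, adjusted p = 0.017). These last are neighbours with overlapping annotation. Psmb8 had 336 and 176 counts (log2 fold change 0.81, SE 0.25, adjusted p = 0.033).

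The rise of H2-D1, H2-K1 and B2m held within each series, with log2 fold changes for H2-K1 of 0.90 (JD), 0.41 (PZ47-PZ48) and 0.65 (PZ58), and of 0.66 and 0.67 for libraries of the high and of the low Rps27a class. The genes that mark interferon-active cells did not pass the test, which does not show that they were unchanged. Isg15 had a log2 fold change of 0.33 (adjusted p = 0.44) and Ifit1 0.66 (adjusted p = 0.33). The share of interferon-active cells was 5.76% with Foxn4 (interval 3.80 to 8.33) and 6.21% in the matched cells (4.16 to 8.85), 26 and 28 of 451 cells each. In all cells without Foxn4, not matched on totals, it was lower, at 3.56% (3.16 to 4.00). Whether the share differs with Foxn4 therefore depends on the cells it is set against. When interferon-active cells were left out of both sets, a setting chosen after seeing the data, H2-K1 had 0.64, H2-D1 0.76 and B2m 0.46, and 6 of the 7 genes passed, all but Psmb8. Among cells in which none of the other 5 factors was detected, 128 with Foxn4, H2-K1 had 0.80, H2-D1 0.76 and B2m 0.70, all past the threshold. Without the JD libraries 3 of the 7 genes passed, H2-D1, H2-K1 and B2m.

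Of 19 other class I genes, 2 were higher with Foxn4, H2-Q4 (log2 fold change 1.24) and H2-Q6 (1.58), whose reads may be shared with related class I genes. The class II chain H2-Ab1 was higher on 64 against 20 counts (adjusted p = 0.039), as were Jak1 (0.55) and Socs3, an inhibitor of JAK signalling (1.30). Of 47 other interferon-stimulated genes 4 were higher (Iigp1, Lgals9, Ifitm1 and Trafd1) and none lower. Over all genes the shares were 4.04% higher and 2.9% lower. Macrophage markers summed to a median of 33.3 CPM with and 29.7 without Foxn4 (ranges 0 to 74.0 and 12.8 to 839), and 12 and 15 cells held at least 3 of them. Skeletal muscle markers were found in 86 cells with and 64 without Foxn4, and endothelium markers in 9 and 19. Fibroblast markers summed to a median of 15229 CPM with and 19011 without Foxn4 (ranges 11479 to 22593 and 11736 to 27650.0) and were higher in 5 of 35 libraries. The part of the fibroblast markers in the class I values was not tested. Without cells of other types 7 genes were higher, 6 of them among those named above.

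Mesp1, a basic helix-loop-helix factor of early mesoderm, was compared next. Of 34 tested genes 5 were lower (Oasl2, Xaf1, Ifih1, Gbp7 and Irgm1) and 2 higher (B2m and H2-K1) in 503 cells with Mesp1 of 36 libraries, where 3.36% of 14363 genes were called lower and 4.85% higher, so the 2 higher genes are near the share over all genes. The median over the tested genes was -0.28, and Ccl5 had too few counts. Irgm1 stood at 0, 84.7 and 278 CPM in cells with Mesp1 (lowest, median and highest library) and 66.8, 137 and 239.5 in cells without, lower in 31 of 36 libraries (log2 fold change -0.65, SE 0.15, adjusted p = 0.002). Oasl2, an oligoadenylate synthetase-like protein, went from a median of 10.7 to 2.68 CPM, lower in 28 of 36 libraries (log2 fold change -1.41, SE 0.31, adjusted p = 0.0014). Xaf1, a pro-apoptotic partner of Xiap, and Ifih1 fell by 0.66 and 0.91 on the log2 scale, and Gbp7 by 0.83. H2-K1 stood at 123, 259 and 512 CPM in cells with Mesp1 (lowest, median and highest library) and 119, 207 and 438 in cells without, higher in 27 of 36 libraries (log2 fold change 0.36, SE 0.09, adjusted p = 0.0089). B2m was higher in 27 of 36 libraries (log2 fold change 0.25, SE 0.08, adjusted p = 0.035).

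Irgm1 and B2m kept their signs with Mesp1 within each series, with log2 fold changes for Irgm1 of -0.41, -0.80 and -0.90 and for B2m of 0.23, 0.27 and 0.23 in JD, PZ47-PZ48 and PZ58. Without the PZ47-PZ48 libraries 1 gene passed, Oasl2, without those of JD neither B2m nor H2-K1 did, and among the 114 cells with none of the other 5 factors none did. Of 14 receptor and JAK-STAT genes 3 were higher, Ifngr1 (0.50), Ifnar2 (0.26) and the phosphatase Ptpn1 (0.33). Of 45 other interferon-stimulated genes 2 were higher and 3 lower, where 4.85% and 3.36% of all genes were. The share of interferon-active cells was 3.85% with Mesp1 (interval 2.33 to 5.94) and 5.26% in the matched cells (3.47 to 7.62), and the intervals overlap. In all cells without Mesp1, not matched on totals, it was 3.67%. Skeletal muscle markers were found in 108 cells with and 70 matched cells without Mesp1. Without cells of other types 6 genes passed, 3 of them among the 7.

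Myod1, the regulator of skeletal muscle, went with lower values of 4 of the 6 class I genes. Of 34 tested genes 5 were lower (Irgm1, Psmb8, B2m, H2-D1 and H2-K1) and none higher in 350 cells of 34 libraries, where 5.25% of 13811 genes were called lower and 9.13% higher. The median over the tested genes was -0.41, and Cxcl10 had too few counts. H2-D1 stood at 0, 210.3 and 571 CPM in cells with Myod1 (lowest, median and highest library) and 80.8, 352 and 669 in cells without, lower in 27 of 34 libraries (log2 fold change -0.60, SE 0.12, adjusted p = 0.00028). H2-K1 was lower in 26 of 34 libraries (log2 fold change -0.45, SE 0.12, adjusted p = 0.0081) and B2m in 24 of 34 libraries (log2 fold change -0.30, SE 0.09, adjusted p = 0.019). Irgm1 went from a median of 112 to 57.7 CPM (log2 fold change -1.01, SE 0.15, adjusted p = 4.8e-07), and Psmb8 from 30.2 to 12.9 CPM (log2 fold change -1.13, SE 0.25, adjusted p = 0.00078).

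Muscle markers differed between the same sets, and their part in the lower values was not tested. Of the cells with Myod1 49.7% held at least 3 skeletal muscle markers, against 13.7% of those without, and the markers summed to a median of 9304 and 88.4 CPM. Fibroblast markers summed to a median of 14015 CPM with and 19088 without Myod1 (ranges 5602 to 23196 and 14409 to 25599) and were higher in 3 of 34 libraries. Among the 139 cells with Myod1 that held no set of markers of another type, none of the 35 genes passed. The log2 fold changes were 0.09 for H2-D1, 0.12 for H2-K1, 0.21 for B2m and -0.68 for Irgm1. This set is smaller, with 25 libraries against 34 and 139 cells against 350. Other class I genes were lower as well, 5 of 18, where 5.25% of all genes were. They were the chaperones Pdia3 (-0.34), Calr (-0.26) and Canx (-0.18) and the proteasome activators Psme1 (-0.45) and Psme2 (-0.39). Ddx58 fell by 0.57 on the log2 scale, while the GTPase Iigp1 rose (1.5, adjusted p = 0.0023). Interferon-active cells made up 1.45% of cells with Myod1 (interval 0.474 to 3.36) and 3.20% of matched cells (1.61 to 5.65), 5 and 11 of 344 cells each. In all cells without Myod1, not matched on totals, the share was 3.78%.

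Myocd, a coactivator of smooth and heart muscle genes, went with log2 fold changes below 0 in most of the 35 genes, but with a single call. In 260 cells of 34 libraries, 33 of 34 tested genes had a log2 fold change below 0, with a median of -0.49 against -0.00238 over all genes. These genes were read in the same cells, so their signs are not independent. A single gene, Cxcl10, was called lower and none higher. Of all 13492 genes 1.8% were called lower and 2.96% higher, so the single call is near the share over all genes. An unadjusted p under 0.05 was found for 10 of the tested genes. Rsad2 had too few counts. Cxcl10 had 1 count with and 74 without Myocd (log2 fold change -2.73, SE 0.69, adjusted p = 0.023). Of those without, 42 were in a single cell of technical replicate 34 and 27 in a single cell of technical replicate 17. Without technical replicate 34 the adjusted p of Cxcl10 was 0.28 and no gene passed. Just above the threshold lay Oasl2 with 36 and 86 counts (log2 fold change -1.41, adjusted p = 0.053), Psmb8 (-1.02, 0.054), Xaf1 (-0.73, 0.059) and Stat2 (-0.58, 0.059).

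Interferon-active cells made up 1.94% of cells with Myocd (interval 0.632 to 4.46) and 4.26% of matched cells (2.15 to 7.50), 5 and 11 of 258 cells each, and the intervals overlap. In all cells without Myocd, not matched on totals, the share was 3.74%. Of 40 other interferon-stimulated genes 4 were lower and 1 higher, where 1.8% and 2.96% of all genes were. The entry inhibitors Ifitm2 and Ifitm3 fell by 0.47 and 0.47 on the log2 scale and Ly6e by 0.59. Skeletal muscle markers were found in 60 cells with and 49 without Myocd, and macrophage markers in 8 and 11. The part of these markers in the lower values was not tested.

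Mef2c and Gata6, the most often detected of the 6 factors, went with 1 call between them. With Mef2c, a MADS-box factor of muscle, 1 of 35 genes was higher, Cxcl10, and none lower, where 4.25% of 16533 genes were called higher and 2.12% lower. Cxcl10 had 305 counts with and 41 without Mef2c (log2 fold change 1.89, SE 0.56, adjusted p = 0.034), and it was higher in 15 and lower in 11 libraries. Of these counts 146 were in the single cell of technical replicate 13. Without that library its log2 fold change was 1.41 (adjusted p = 0.2). Skeletal muscle markers were found in 429 cells with and 210 without Mef2c, macrophage markers in 79 and 37 and glia markers in 90 and 13. The glia markers summed to a median of 64.9 and 30.0 CPM and were higher in 32 of 36 libraries. Without cells of other types no gene passed. The median log2 fold change of the 35 genes was 0.11, and for B2m it was -0.01 (SE 0.03). With Gata6, a zinc finger factor of heart and mesothelium, none of 35 genes was called by edgeR and their median was 0.11, where 4.03% of 16301 genes were called higher and 2.45% lower. At an unadjusted p under 0.05 there was 1, and DESeq2 called 0. H2-K1 had a log2 fold change of 0.01 (SE 0.05) with Gata6 and Isg15 0.08 (SE 0.13).

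Interferon-active cells made up 4.18% of cells with Mef2c and 3.59% of matched cells, and 4.28% and 4.07% for Gata6. In all cells without the factor, not matched on totals, the shares were 3.50% for Mef2c and 3.49% for Gata6. Whether the 6 factors differ from each other was not tested. For Mef2c 4 of 55 other interferon-stimulated genes were higher, where 4.25% of all genes were. They were led by Iigp1 (1.02, adjusted p = 0.00017, higher in 29 of 36 libraries). For Gata6 it was 2 of 54, Lgals9 (0.36) and Slfn2 (0.52), which is near the 4.03% over all genes. With Gata6, mesothelium markers were found in 260 of 2001 cells, against 37 without it.

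**Figure D5:**
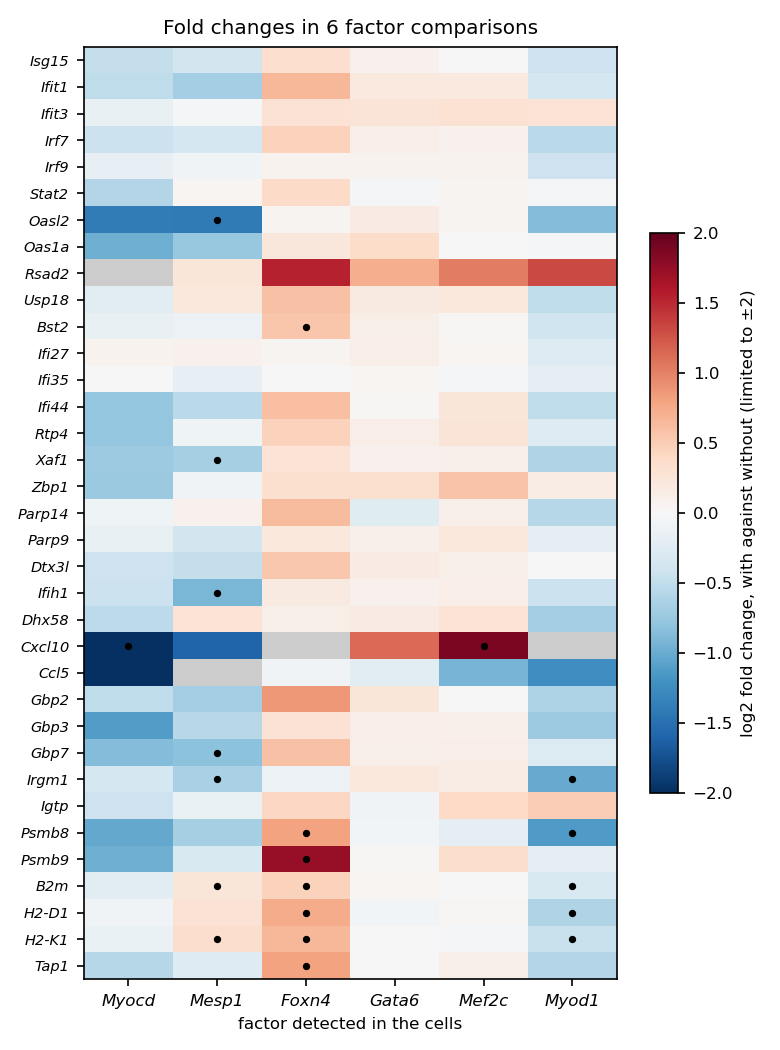
Log2 fold change of each of the 35 genes between cells with and without each of 6 factors, as a colour limited to 2 in either direction, with a dot where the adjusted p of edgeR was under 0.05 and grey where a gene had too few counts to be tested. Dots gather at the class I genes for Foxn4 (higher) and Myod1 (lower), and the Myocd column is mostly blue.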

How the data were processed

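The deposited values are counts per gene and cell barcode. Per the submitters' processing notes, bcl2fastq 2.17.1.14, STAR 2.5.3a, UMI-tools and featureCounts 1.5.3 were used on build mm10. Annotation, strand, cell filter and whether the counts are of molecules are not given in the sources used here, and no doublet caller was run. Rows without a symbol (353) stayed in totals and tests. Cells with a factor (at least 1 count of its gene), or interferon-active ones, were matched 1 to 1 on totals within libraries that had at least 3, summed per library, and tested with edgeR 4.0.16 (R 4.3.3; TMM scaling, library as block, at least 20 counts, factor or core genes left out). DESeq2 1.42.0 was an alternative. Standard errors are the log2 fold change over the root of the F statistic. CPM of cell sets in tests use the set's counts less those of the factor or core genes left out. The test was tried on simulated counts. Genes named are all 35, with full values for those called and the 6 with the most counts, and per pathway list at most 4 called ones, by smallest adjusted p. For active cells the rule also took the 8 highest and 5 lowest log2 fold changes with the same sign in 3 series and at least 50 counts. A pathway gene is not reported here. The 35 genes and all lists were chosen with earlier results of these data known.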

Additional observations from a re-analysis of the deposited data

Results flagged for a closer look

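Among the 6 libraries of PZ58, 36 values were looked at (the level of each of the 35 genes and the share of interferon-active cells), and in 7 the highest library lay farther from the next than the spread of the others allows (Dixon's test at the 95% level). Chance flags about 1 in 20 such groups when values are independent and normally distributed. These genes were read in the same cells and some had few counts, so that rate need not hold here. Technical replicate 36 was that library for most of them. Ifit3 stood at 41.4 CPM in technical replicate 36 against 8.28 to 19.1 in the other libraries of the series. Oasl2 stood at 16.3 CPM in technical replicate 36 against 6.84 to 8.99 in the other libraries of the series. Rsad2 stood at 16.6 CPM in technical replicate 36 against 1.05 to 4.40 in the other libraries of the series. Ifi44 stood at 21.8 CPM in technical replicate 36 against 6.80 to 11.6 in the other libraries of the series. Cxcl10 stood at 15.5 CPM in technical replicate 34 against 0 to 5.77 in the other libraries of the series. Ccl5 stood at 11.2 CPM in technical replicate 36 against 0 to 3.17 in the other libraries of the series. H2-K1 stood at 292 CPM in technical replicate 36 against 166 to 211 in the other libraries of the series. The share of interferon-active cells in technical replicate 36 was 5.26% of 190 cells, which is not the highest of the series.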

How the results depend on the processing

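For interferon-active cells the number of genes called stayed between 16 and 23 of 23 under every alternative run, against 22, all higher. For Myocd, 1 gene was called, and the count was 2 with DESeq2, 5 with no low-count filter, 4 with no library block, 0 without cells of other types, 0 with cells thinned to 3000 counts, 2 without series JD, 0 without series PZ47-PZ48, 0 without series PZ58, 0 with at least 2 counts of the factor, 0 without the other 5 factors. For Mesp1, 7 genes were called, and the count was 11 with no low-count filter, 1 without series PZ47-PZ48, 4 without series PZ58, 4 with at least 2 counts of the factor, 0 without the other 5 factors. For Foxn4, 7 genes were called, and the count was 4 without the deepest 5% of cells, 4 with cells thinned to 3000 counts, 3 without series JD, 4 with at least 2 counts of the factor, 3 without the other 5 factors. For Gata6, 0 genes were called, and the count was 1 with no low-count filter, 1 without the other 5 factors. For Mef2c, 1 gene was called, and the count was 0 with DESeq2, 2 with no low-count filter, 0 without the deepest 5% of cells, 0 without cells of other types, 0 with cells thinned to 3000 counts, 0 with a caliper of 5%, 0 without series JD, 0 without series PZ47-PZ48, 0 without the other 5 factors, 0 without interferon-active cells. For Myod1, 5 genes were called, and the count was 8 with no low-count filter, 8 without the deepest 5% of cells, 0 without cells of other types, 8 with a caliper of 5%, 3 without series PZ47-PZ48, 0 without the other 5 factors. Leaving out 1 library, chosen after seeing the data as the one with the most Cxcl10 counts, gave 0 genes for Myocd (without technical replicate 34) and 0 for Mef2c (without technical replicate 13). With interferon-active cells left out, also chosen later, the gene called for Myocd was Oasl2 in place of Cxcl10. Single genes changed direction only with Myod1: without cells of other types B2m had 0.21, H2-D1 0.093 and H2-K1 0.12, and without the other 5 factors B2m had 0.31 and H2-D1 0.10 on the log2 scale. These sets hold fewer cells, and the causes of the changes were not tested. The share of interferon-active cells was 9.69% and 1.57% with 2 and 4 genes required, 2.20%, 7.13% and 16.9% at 2000 counts, 5000 counts and without thinning, and 7.64% with Bst2 as a 13th core gene. Other alternatives moved it less than the spread between libraries. The median correlation was 0.0720 at 5000 counts against 0.0533 at 3000. No paired analysis was possible beyond the library block, because there is 1 group.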

Other observations

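The lowest fold changes in interferon-active cells, among genes with the same sign in 3 series, were of skeletal muscle genes, Tnnc2 (log2 fold change -4.73, 5 against 291 counts), Mylpf (-4.18), Myl1 (-4.12) and Mybph (-3.95), with the adenosine receptor gene Adora1 (-3.99), all past the threshold of edgeR. Adora1 and Mybph overlap and have the same counts in both sets, 6 and 206. The lower values of Tnnc2 were in 9 of 34 libraries, and at least 3 skeletal muscle markers, a list that holds Tnnc2 and Mylpf, were found in 19 active and 40 matched cells. Their part in these values was not tested. Beside Cxcl10, Ifit3b, Iigp1, Igtp and Gbp3, the highest were Ddx60 (3.01), Trim30a (3.00) and Phf11d (2.93), all genes of the interferon response.

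Chemokines of the NF-kB response fell with several factors. Ccl2 and Ccl7, which attract monocytes, fell by 1.63 and 0.98 on the log2 scale with Myod1, by 1.20 and 1.07 with Myocd and by 0.61 and 0.58 with Mef2c. With Mesp1 members of 1 gene family went opposite ways, Ifitm1 higher by 2.01 (adjusted p = 6.2e-07, 29 of 36 libraries) and Ifitm3 at -0.40 (adjusted p = 0.00012).

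The cell with 146 counts of Cxcl10 (technical replicate 13) also held 155 of Ifit3, 77 of Rsad2 and 91 of Isg15 among 42782 counts, and 9 of the 12 core genes after thinning. The 5 cells with the most Cxcl10, each from another library, held 63.8% of its 437 counts. None of these 5 had a count of Ccl5, but the next cell (technical replicate 33) had 11 beside 17 of Cxcl10. The cell of technical replicate 15, with 41 counts of Cxcl10, held 3 of 17 macrophage markers and so counts among cells of another type, and the other 4 held 0 or 1.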
